A study of Mus musculus with 15 samples.

Results

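The 9 sarcomeric myosin heavy chain genes Myh1, Myh2, Myh3, Myh4, Myh6, Myh7, Myh7b, Myh8 and Myh13 were followed in 15 RNA libraries of tibialis anterior, a muscle of the lower hind limb, from male 129Pas mice at 7 weeks of age. They were chosen by name, through the Ensembl identifiers that GENCODE M21 gives them on GRCm38, and all 9 were among the 30672 genes of the count table. There were 4 groups: 4 libraries of wild-type muscle (WT), 4 of wild type treated with tamoxifen (WT + TAM), 4 of Mtm1-/y and 3 of Mtm1-/y treated with tamoxifen (Mtm1-/y + TAM). Mtm1 lies on the X chromosome and codes for myotubularin, a phosphatase of phosphoinositides, and Mtm1-/y males serve as a model of myotubular myopathy. Tamoxifen binds oestrogen receptors and acts on them in a tissue-dependent way. Sources used here give neither its dose nor its route or duration.

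Myosin heavy chains carry the motor head of the thick filament and hydrolyse ATP to pull on actin. Each fibre type is defined by the heavy chain it contains: Myh7 in slow type I fibres, Myh2 in fast type IIA, Myh1 in IIX and Myh4 in IIB, the fastest of the mouse limb. Myh3 (embryonic) and Myh8 (perinatal) are used in developing and regenerating fibres, Myh6 is the alpha heavy chain of the heart, Myh13 belongs to extraocular and laryngeal muscle, and Myh7b is an ancient member found at low level in slow fibres, heart and muscle spindles. The tibialis anterior of the mouse is a fast muscle built mainly from IIB and IIX fibres.

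Of the 9 genes, 6 stand head to tail on the plus strand of chromosome 11 within 293.287 kb. On GRCm38 their order is Myh3 (chr11:67078300-67102291), Myh2 (chr11:67171027-67197517), Myh1 (chr11:67200052-67224575), Myh4 (chr11:67238029-67260446), Myh8 (chr11:67277124-67308634) and Myh13 (chr11:67321658-67371586). Myh6 (chr14:54941921-54966927) and Myh7 (chr14:54970684-54994626) are neighbours on the minus strand of chromosome 14, and Myh7b (chr2:155611212-155634307) lies alone on the plus strand of chromosome 2.

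All 9 genes had a promoter in the RefSeq table for GRCm38, which covers 250 bases before and 50 after a start. The adult fast genes and Myh8 shared an unbroken stretch of 14 bases there, shown because these are the members that supply nearly all of the heavy chain RNA and the perinatal member that moved with genotype. Capitals mark the stretch:

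Myh2 (chr11:67170857-67170945, plus strand): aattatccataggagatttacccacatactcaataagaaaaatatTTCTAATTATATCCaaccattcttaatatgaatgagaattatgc

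Myh1 (chr11:67199897-67199985, plus strand): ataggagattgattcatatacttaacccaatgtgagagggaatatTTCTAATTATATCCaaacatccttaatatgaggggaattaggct

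Myh4 (chr11:67237609-67237697, plus strand): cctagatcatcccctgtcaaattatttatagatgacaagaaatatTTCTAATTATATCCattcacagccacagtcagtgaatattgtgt

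Myh8 (chr11:67277025-67277113, plus strand): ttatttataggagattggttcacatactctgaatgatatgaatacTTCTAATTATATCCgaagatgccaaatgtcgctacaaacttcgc

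Counted from the RefSeq start, the stretch began at position -125 in Myh2, -160 in Myh1, -158 in Myh4 and -54 in Myh8. It was taken as the longest stretch common to these 4 genes, so its presence in them is given. On either strand it was found in 4 of 32544 distinct promoter windows, or 0.0123%, which were these 4. The windows of Myh6 and Myh13 (both inside the annotated gene), Myh7 and Myh7b did not hold the stretch. Nor did that of Myh3, the embryonic gene at the other end of the cluster and the member that moved most with genotype. The 100 bases before the Myh3 start are shown with the TATA box in capitals:

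Myh3 (chr11:67078200-67078299, plus strand): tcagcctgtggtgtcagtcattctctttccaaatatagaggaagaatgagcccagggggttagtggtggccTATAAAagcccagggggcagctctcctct

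Searched on both strands, TATAAA was in 13.6% of all windows and in 6 of the 9 members' windows, the E-box CANNTG of the myogenic factors in 72.3% and in 7 members, the MCAT element CATTCC of the TEAD factors in 14.6% and in 4 members, the MEF2 consensus in 3.16% and in 3 members, and the CArG box in 1.64% and in 2 members. The MEF2 consensus is A and T rich, as the TATA box is, and their matches can overlap. The counts of members include the windows of Myh6 and Myh13, which lie inside the annotated genes. A match is a description of letters and not a bound site.

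The coding sequences were close. The longest open reading frames of Myh6 and Myh7 were identical at 91.7% of aligned bases, those of Myh1 and Myh2 at 90.9%, of Myh1 and Myh4 at 90.2% and of Myh1 and Myh8 at 89.3%, while Myh7b matched the others at 68.4 to 72.1%. Of all 50-base windows of a member's transcript, 32.1% in Myh1, 28.9% in Myh2, 28.3% in Myh7, 22.6% in Myh6, 21.4% in Myh8, 18.9% in Myh4, 8.45% in Myh13, 4.81% in Myh3 and 0% in Myh7b occurred exactly in the transcript of another gene. Every such window of Myh6 was shared with Myh7. Sources used here do not say how reads from shared windows were counted, so a low value of Myh6, Myh8 or Myh13 beside an abundant relative is uncertain.

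Total counts were 18042558 to 45823277 per library. Levels are given as CPM, the count divided by library size and TMM factor and scaled to 1e+06. Mtm1 served as a check of the genotype and stood at 15.2, 15.3, 14.9 and 15.6 CPM in WT, 13.5, 16.9, 17.0 and 17.7 in WT + TAM, 3.61, 3.63, 3.27 and 2.91 in Mtm1-/y, and 3.71, 3.04 and 3.70 in Mtm1-/y + TAM, so every mutant library was below every wild-type library. WT + TAM replicate 1 lay far from all other libraries on a principal component of log2 CPM, and Mtm1-/y replicate 1 on another. The changes of members that rest on the first of these are given with and without it. The 10 fast fibre genes summed to 90955 to 157612 CPM and the 9 cardiac markers of the table to 3.88 to 27.4 CPM, with up to 4 of the 9 at 0 in a library. The labels name no batch, litter or date. The series describes groups of mice, and nothing more is given on how replicates of a group relate.

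Heavy chain RNA was nearly all adult fast. The 9 genes took 6.26 ± 1.06% (SD, n = 4) of all counts in WT, 5.66 ± 0.55% in WT + TAM, 6.0 ± 0.25% in Mtm1-/y and 5.66 ± 0.27% (n = 3) in Mtm1-/y + TAM, and these ranges overlapped. Within that pool, Myh4, Myh1 and Myh2 together held 99.05 to 99.96% in every library. The other 6 genes shared the small remainder, at most 0.949% of the pool. In bulk muscle, fewer fibres of a type and less RNA per fibre cannot be told apart.

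Myh4, the IIB chain, supplied 87.1, 83.1, 80.2 and 82.5% of the summed counts in the 4 WT libraries. Its share was 68.9, 86.2, 83.0 and 65.2% in WT + TAM, 77.0, 75.5, 84.6 and 79.8% in Mtm1-/y, and 70.8, 68.5 and 70.0% in Mtm1-/y + TAM. WT + TAM fell into a high and a low pair of libraries, while the 3 Mtm1-/y + TAM libraries were all below the lowest WT and the lowest Mtm1-/y library.

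Myh1, the IIX chain, held most of the remainder, with 12.1, 15.02, 18.02 and 16.0% in WT and 21.5, 23.3, 14.6 and 19.1% in Mtm1-/y. Under tamoxifen its share was 25.1, 12.8, 16.0 and 32.3% in wild type and 27.6, 28.8 and 28.7% in the mutant. The same 2 WT + TAM libraries, replicates 1 and 4, that were low in Myh4 were high in Myh1, and all Mtm1-/y + TAM libraries were above all untreated libraries. Per 100 counts of Myh4 there were 13.9 to 22.5 counts of Myh1 in WT, 14.9 to 49.5 in WT + TAM, 17.2 to 30.9 in Mtm1-/y and 39.0 to 42.1 in Mtm1-/y + TAM. Shares are ratios within a library and were described without a test. Myh4 and Myh1 hold nearly all of the pool, so a low Myh4 share leaves a high Myh1 share. Their shares and their ratio are not separate observations.

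Myh2, the IIA chain, made up 1.44 ± 0.48% (SD) in WT, 2.33 ± 1.95% in WT + TAM, 1.01 ± 0.25% in Mtm1-/y and 1.61 ± 0.65% in Mtm1-/y + TAM, and the highest value, 5.04%, was in WT + TAM replicate 1. The embryonic chain Myh3 was at 0.0067 to 0.0102% of the pool in WT, 0.0272 to 0.0746% in Mtm1-/y and 0.0636 to 0.0996% in Mtm1-/y + TAM, with 0.0084 to 0.0283% in WT + TAM. The perinatal chain Myh8 was at 0.0131 to 0.0201% in WT, 0.0213 to 0.0481% in WT + TAM, 0.0278 to 0.0496% in Mtm1-/y and 0.0374 to 0.0668% in Mtm1-/y + TAM. The 95% Wilson intervals, which cover counting error only, reached at most 0.0866 percentage points to either side for Myh4, small beside the spread between libraries. In WT they reached 0.000855 to 0.00155 points for Myh3, whose SD was 0.00151, and 0.000594 to 0.000961 points for Myh7, whose SD was 0.000779. The reach of a 95% interval is wider than the SD of counting error, so these are unlike measures. In Mtm1-/y the intervals of Myh3 reached 0.00206 to 0.00368 points, where the SD was 0.0216.

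**Figure D1:**
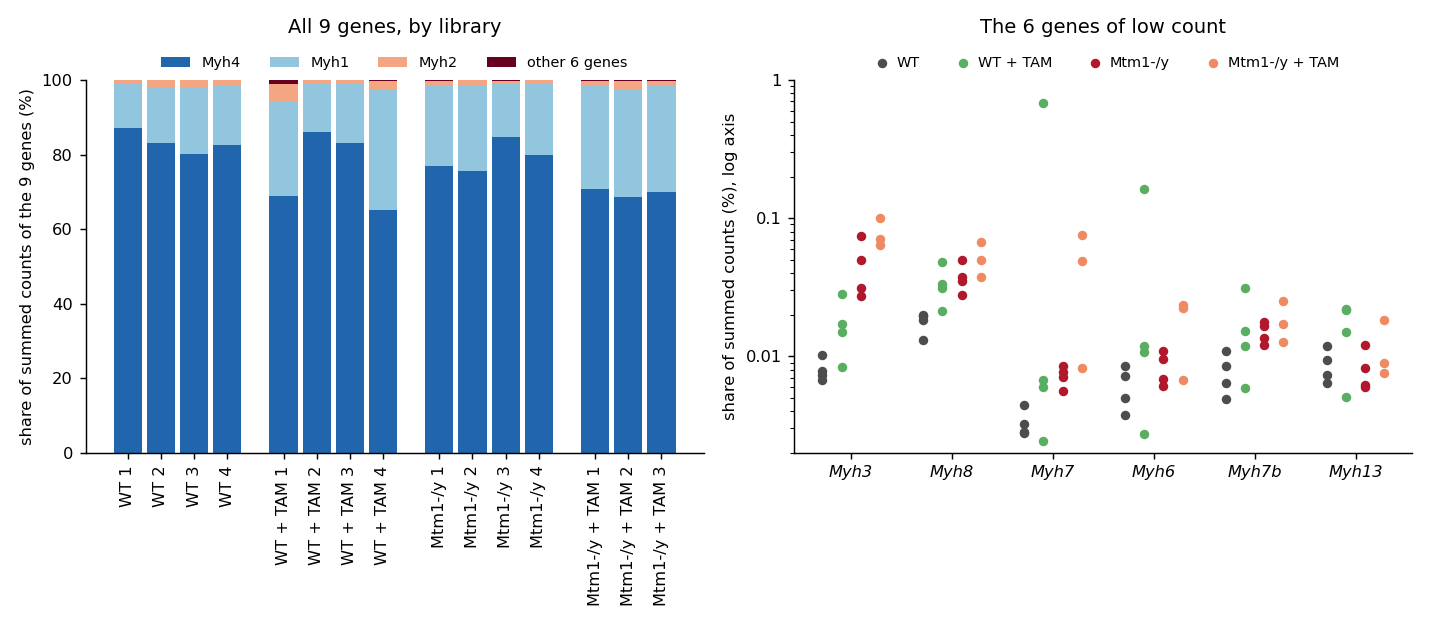
Left, share of the summed counts of the 9 genes (%) in each of the 15 libraries, stacked from 0; right, the same share for the 6 genes of low count on a log axis, a point per library coloured by group. Myh4 holds 65.2 to 87.1% everywhere, and WT + TAM replicate 1 stands alone in Myh7 (0.682%) and Myh6 (0.163%).

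Ordered by counts per kilobase of exon, Myh4, Myh1 and Myh2 came in that order in all 4 groups, and the ranges of neighbours did not overlap, with mean shares of 84.1, 14.6 and 1.23% of the summed counts per kilobase in WT. Below them in WT came Myh8, Myh13, Myh3, Myh7b and Myh6, whose neighbours all overlapped, and then Myh7, below the range of Myh6. In Mtm1-/y and in Mtm1-/y + TAM, Myh3 took the fourth place and stood apart from the next gene. The exons annotated for Myh8 (11772 bp) and Myh7 (8616 bp) include retained introns, which lowers their values per kilobase.

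The comparison of Mtm1-/y with WT asks what loss of myotubularin did to these genes. The developmental chains rose and the adult fast chains did not pass the test. With edgeR, 2 of the 9 members were called at an adjusted p under 0.05, both higher, where 30.4% of the 15533 genes tested were called and 15.5% were higher, so 2 of 9 is no more than the background gives. The median log2 fold change of the 9 members was 0.27, against 0.00047 over all genes tested.

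Myh3, the embryonic chain, stood at 5.83, 5.26, 3.85 and 6.04 CPM in WT and at 41.1, 18.5, 29.8 and 15.01 CPM in Mtm1-/y. The lowest mutant library was above the highest WT library, and Mtm1-/y replicate 1 was the highest. The log2 fold change was 2.31 ± 0.36 (SE) with an adjusted p of 0.000542, and 1.996 to 2.501 when any single library was left out.

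Myh8, the perinatal chain, stood at 11.4, 13.5, 10.4 and 10.8 CPM in WT and at 27.4, 20.8, 16.6 and 20.6 CPM in Mtm1-/y. The groups again did not overlap, as in 30.5% of all genes tested. The log2 fold change was 0.89 ± 0.22 (SE) with an adjusted p of 0.00667, and 0.75 to 1.01 when any single library was left out.

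Among the adult fast chains, Myh4 stood at 75773, 56014, 42202 and 49042 CPM in WT and at 42508, 44399, 50429 and 43947 CPM in Mtm1-/y, with a log2 fold change of -0.30 ± 0.17 and an adjusted p of 0.187. Myh1 stood at 10507, 10126, 9480 and 9508 CPM in WT and 11881, 13708, 8678 and 10527 CPM in Mtm1-/y, a log2 fold change of 0.18 ± 0.22 (adjusted p = 0.586). Myh2 stood at 656, 1223, 912 and 862 CPM in WT and 691, 661, 401 and 555 CPM in Mtm1-/y, a log2 fold change of -0.66 ± 0.50 (adjusted p = 0.339). All of these groups overlapped, and WT replicate 1 was the highest library in Myh4.

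The slow chain Myh7 and its ancient relative Myh7b were low in both groups but did not overlap between them. Myh7 stood at 2.80, 1.90, 1.46 and 2.64 CPM in WT and 4.66, 4.19, 4.58 and 3.09 CPM in Mtm1-/y. Myh7b stood at 5.61, 3.28, 4.47 and 6.45 CPM in WT and 9.83, 7.10, 9.79 and 7.53 CPM in Mtm1-/y. Neither was called in the fit across the 4 groups, where the log2 fold change of Myh7 was 0.87 ± 1.54 (adjusted p = 0.707) and that of Myh7b 0.78 ± 0.42 (adjusted p = 0.174).

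That fit estimates 1 spread per gene from all groups, WT + TAM replicate 1 included. When only the WT and Mtm1-/y libraries were fitted, Myh7 (0.89, adjusted p = 0.0187), Myh7b (0.78, adjusted p = 0.0211) and Myh2 (-0.66, adjusted p = 0.0428) were called too, which made 5 members. In that fit 4088 of the 15533 genes tested were called. Without WT + TAM replicate 1 alone, Myh7b was called (0.78, adjusted p = 0.0441) and Myh7 was not (0.88, adjusted p = 0.215), where 5112 of the 15533 genes were called. The alpha chain Myh6 stood at 4.35, 2.53, 3.81 and 5.05 CPM in WT and 6.02, 4.03, 5.72 and 3.34 CPM in Mtm1-/y. The extraocular chain Myh13 stood at 6.35, 4.35, 4.96 and 7.07 CPM in WT and 4.52, 3.51, 7.18 and 3.43 CPM in Mtm1-/y. Both overlapped between the groups and were not called.

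**Figure D2:**
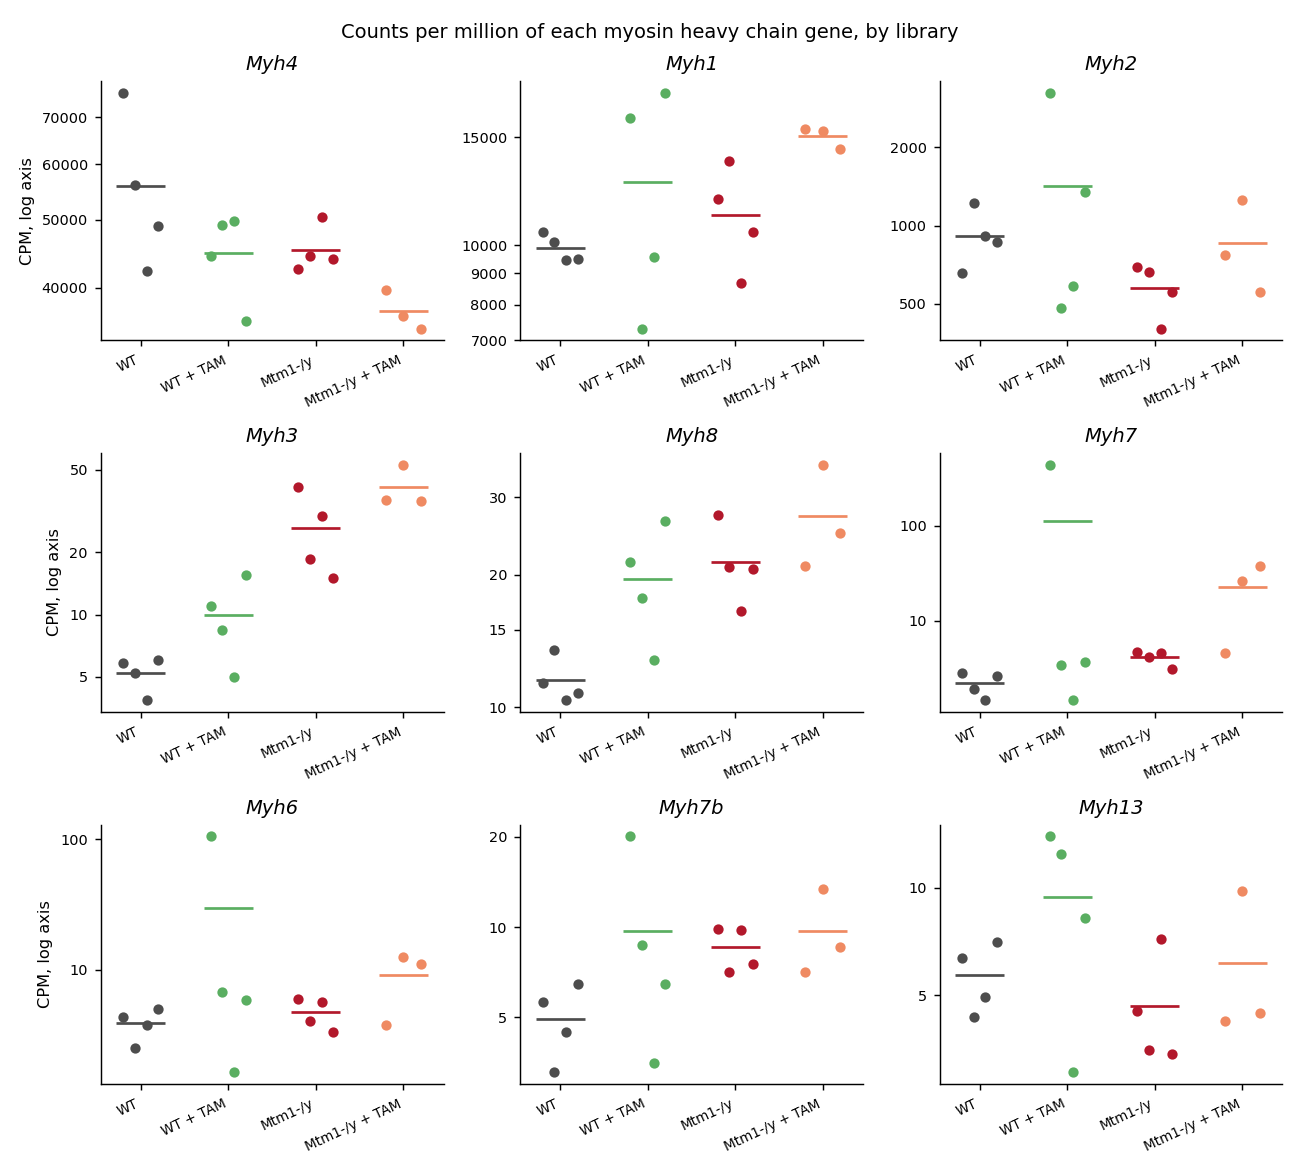
Level in CPM (scaled by library size and TMM factor, log axis) of each of the 9 genes, a panel per gene and a point per library, with a horizontal line at the group mean. In Myh3 and Myh8 every Mtm1-/y library lies above every WT library, and in Myh7 and Myh6 WT + TAM replicate 1 lies at 439 and 105 CPM.

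Under tamoxifen the comparison of the genotypes gave the same call for Myh3 and not for Myh8. Of the 9 members, 1 was called in Mtm1-/y + TAM against WT + TAM, and it was higher, where 20.1% of all genes tested were called, 10.6% higher and 9.46% lower. Myh3 stood at 10.99, 8.46, 5.02 and 15.6 CPM in WT + TAM and at 35.7, 53.0 and 35.5 CPM in Mtm1-/y + TAM, without overlap, and its log2 fold change was 2.06 ± 0.37 with an adjusted p of 0.0023. Groups did not overlap in 31.6% of all genes tested in this comparison.

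Myh8 stood at 21.4, 17.7, 12.8 and 26.5 CPM in WT + TAM and at 20.9, 35.6 and 24.9 CPM in Mtm1-/y + TAM. These groups overlapped, and 3 of the 4 WT + TAM libraries lay above every WT library. The log2 fold change was 0.48 ± 0.23 (adjusted p = 0.158). Whether the effect of genotype on Myh8 differs with treatment was tested by the interaction, which gave -0.42 ± 0.31 with an adjusted p of 0.647.

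The value of the slow chain Myh7 turned on a single library. It stood at 439, 3.42, 1.45 and 3.70 CPM in WT + TAM and at 4.61, 25.97 and 37.7 CPM in Mtm1-/y + TAM. With all libraries its log2 fold change was -2.28 ± 1.54 (adjusted p = 0.329). Without WT + TAM replicate 1 the direction turned and the gene was called, at 3.04 ± 0.60 with an adjusted p of 0.0043. The count of members called was then 2, where 3335 of the 15533 genes tested were called.

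The remaining members overlapped between the treated genotypes. Myh4 was at 44389, 49066, 49730.3 and 35831 CPM in WT + TAM, and Myh1 at 16161, 7311, 9567 and 17738 CPM. Myh2 was at 3246, 484, 586 and 1349 CPM in WT + TAM and 769, 1250.2 and 558 CPM in Mtm1-/y + TAM. WT + TAM replicate 1 was the highest library of Myh2, as of Myh6 and Myh7. Myh7b was at 20.1, 8.72, 3.52 and 6.48 CPM in WT + TAM and 7.1, 13.5 and 8.61 CPM in Mtm1-/y + TAM. Myh6 was at 105, 6.73, 1.64 and 5.91 CPM in WT + TAM, and Myh13 at 13.9, 12.4, 3.04 and 8.24 CPM there and 4.24, 9.8 and 4.46 CPM in Mtm1-/y + TAM. Replicate 1 was the highest WT + TAM library in all 3 of these genes, and replicate 3 the lowest.

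The same library turned the directions of Myh6, from -1.68 to 0.99 (adjusted p = 0.177), and of Myh2, from -0.72 to 0.091 (adjusted p = 0.897), neither of which was called either way. Myh7b differed by 0.020 ± 0.44, Myh13 by -0.59 ± 0.45, Myh1 by 0.25 ± 0.24 and Myh4 by -0.27 ± 0.18 on the log2 scale, with adjusted p from 0.313 to 0.982. For Myh4 and Myh1 these values lay close to those without tamoxifen, and the interaction was 0.03 ± 0.24 for Myh4 and 0.07 ± 0.33 for Myh1.

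**Figure D3:**
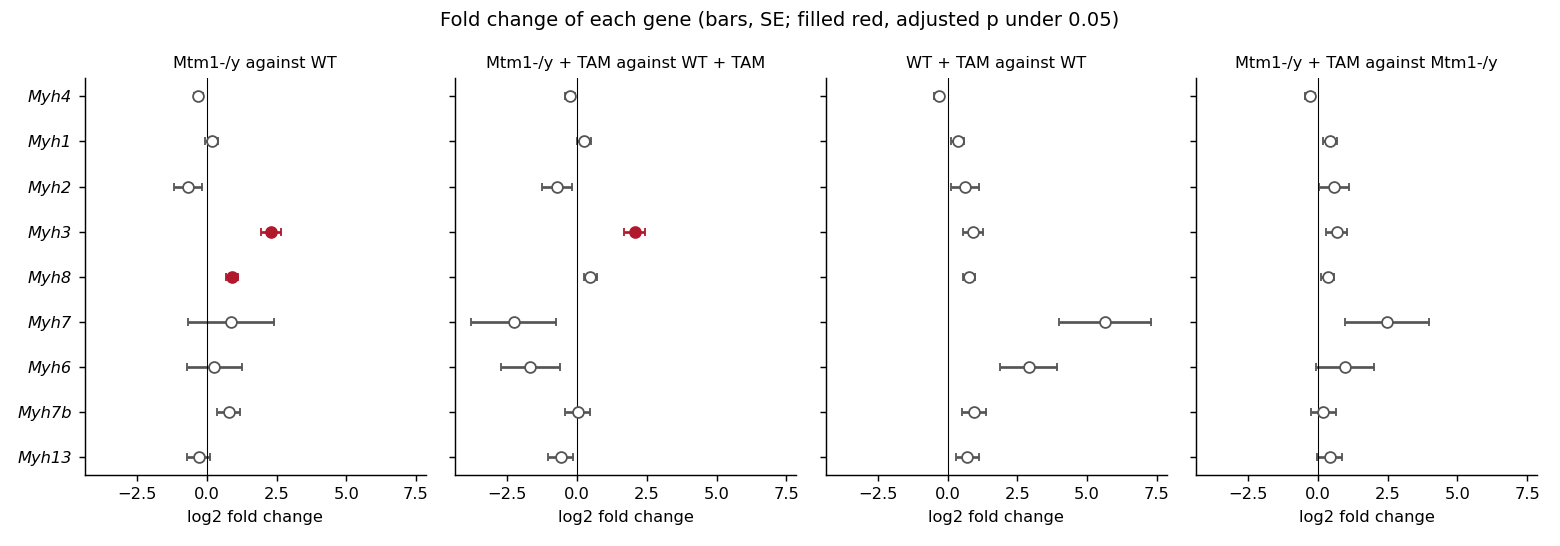
Log2 fold change of each gene in 4 comparisons, with bars for the SE derived from the F statistic of the test and filled red points for an adjusted p under 0.05. Myh3 is filled in both comparisons of genotype (2.31 and 2.06) and Myh8 in the untreated comparison (0.89), and no gene is filled in the comparisons of treatment.

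In wild-type muscle, tamoxifen changed no member past the threshold. With edgeR 0 of the 9 members were called in WT + TAM against WT, where 0.309% of all genes tested were called (0.18% higher and 0.129% lower), while 5 members had an unadjusted p under 0.05, DESeq2 called 2 and limma-voom 0. Of all genes tested, 11.3% had such a p and 1.92% were called by DESeq2. All 9 but Myh4 had a log2 fold change above 0, with a median of 0.77 against 0.0024 over all genes tested. No member had groups that did not overlap, against 8.08% of all genes.

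Myh8 was at 10.4 to 13.5 CPM in WT and 12.8 to 26.5 CPM in WT + TAM, a log2 fold change of 0.77 ± 0.22 (adjusted p = 0.174), and was called by DESeq2 (0.77, adjusted p = 0.0417). Myh3 was at 3.85 to 6.04 CPM in WT and 5.02 to 15.6 CPM in WT + TAM, a log2 fold change of 0.92 ± 0.36 (adjusted p = 0.355). Both developmental chains were highest in WT + TAM replicate 4 and lowest in replicate 3, where they lay within the WT range.

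Myh7 had the largest fitted change, 5.64 ± 1.66 (adjusted p = 0.211), and Myh6 the next, 2.91 ± 1.02 (adjusted p = 0.29). Both came from WT + TAM replicate 1, and without it they were 0.32 (adjusted p = 0.899) and 0.24 (adjusted p = 0.911). DESeq2 called Myh7 with all libraries (5.68, adjusted p = 0.00187). Without that library the change of Myh2 went from 0.63 (adjusted p = 0.681) to -0.18 (adjusted p = 0.913) and that of Myh7b from 0.95 (adjusted p = 0.416) to 0.30 (adjusted p = 0.778).

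Other slow genes were high in WT + TAM replicate 1 too. Of 10 slow fibre genes, 7 had their highest value of the 15 libraries there. Myl2, the slow regulatory light chain, was at 271.8 CPM where the rest of its group had 0.82 to 11.5 CPM. Tnnt1, slow troponin T, was at 104.2 CPM against 1.52 to 5.30 CPM, and Tpm3, slow tropomyosin, at 138.1 CPM against 12.7 to 22.7 CPM.

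Casq2, the calsequestrin of heart and slow fibres, was lowest there, at 14.8 CPM against 41.4 to 82.9 CPM in the other 3 libraries. The 9 cardiac markers summed to 9.16 CPM there, with 4 of the 9 at 0, where the rest of its group had 3.88 to 6.07 CPM. The 6 Schwann cell markers summed to 177.5 CPM there, against 62.7 to 113.6 CPM in its group's remaining libraries, while the 5 endothelial markers summed to 245.3 CPM against 393.9 to 456.9 CPM. Of the 6 adipocyte markers, 4 were higher there than in the rest of its group: Adipoq, a fat hormone, at 12.02 CPM against 0.0381 to 1.43 CPM, Plin1 at 11.2, Cidec at 10.99 and Lep at 3.02 CPM. Fabp4, at 147 CPM the most abundant of the 6, was lowest there, and the sum of the 6 was 188.5 CPM against 187.2 to 212.2 CPM. The part of other tissue in this library was not tested.

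Counts of Myh6 per 100 counts of Myh7 were 24.0 in WT + TAM replicate 1, 133 to 261 in WT and 96.2 to 129 in Mtm1-/y, and 29.6 to 81.6 in Mtm1-/y + TAM. The 3 libraries with the most Myh7 had the lowest of these ratios. With 22.6% of Myh6 windows identical in Myh7, the share of Myh6 counts that came from Myh7 transcripts was not tested.

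**Figure D4:**
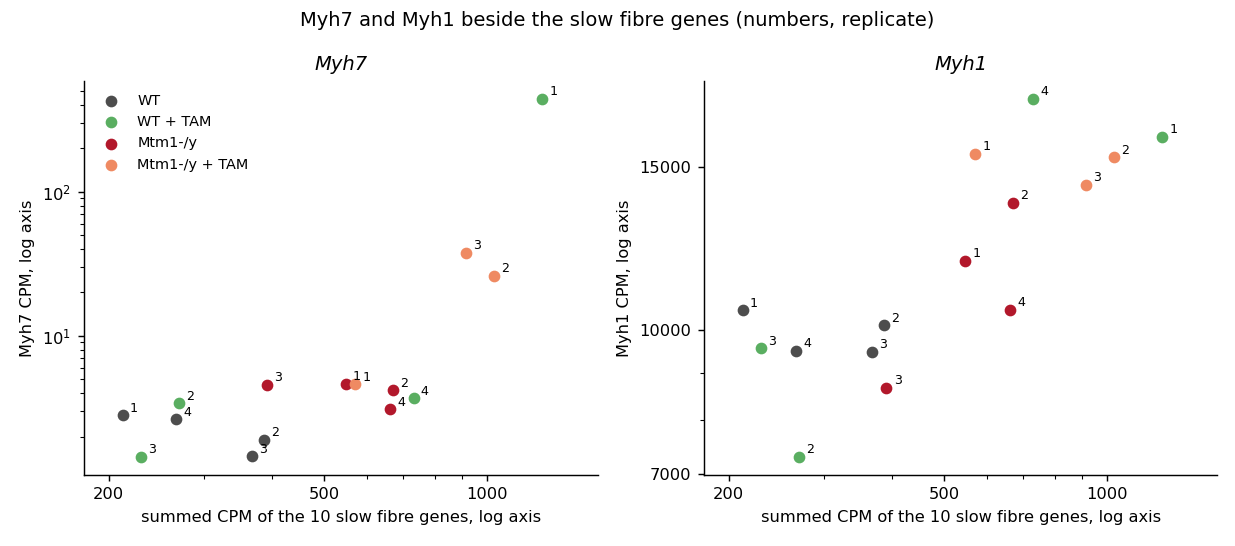
Myh7 (left) and Myh1 (right) in CPM against the summed CPM of 10 slow fibre genes, both on log axes, a point per library with its replicate number and coloured by group. WT + TAM replicate 1 has the highest slow sum (1265 CPM) and the highest Myh7 (439 CPM), and Mtm1-/y + TAM replicates 2 and 3 follow in Myh7.

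In mutant muscle no member passed the test for tamoxifen. With edgeR 0 of the 9 members were called in Mtm1-/y + TAM against Mtm1-/y, where 0.0129% of all genes tested were called, and 0 members had an unadjusted p under 0.05 or a call by DESeq2 or limma-voom. Myh1 stood at 15494, 15346 and 14346 CPM in Mtm1-/y + TAM against 8678 to 13708 CPM in Mtm1-/y, a log2 fold change of 0.43 ± 0.24 (adjusted p = 0.855). Myh4 stood at 39705, 36455 and 34978 CPM against 42508 to 50429 CPM, a log2 fold change of -0.29 ± 0.18 (adjusted p = 0.868).

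Neither Myh1 nor Myh4 overlapped between these groups, as in 5.71% of all genes tested. With the summed counts of the 9 genes as library size, the values were 0.53 for Myh1 and -0.18 for Myh4 (adjusted p = 0.999 for both), on a scale where the median of all genes was 0.11. The embryonic Myh3 had a log2 fold change of 0.67 ± 0.36 (adjusted p = 0.855) and Myh8 of 0.35 ± 0.23 (adjusted p = 0.873), with overlapping groups.

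Myh7 was at 25.97 and 37.7 CPM in 2 of the 3 treated mutants, while the other, at 4.61 CPM, lay within the untreated range of 3.09 to 4.66 CPM. Its log2 fold change was 2.48 ± 1.51 (adjusted p = 0.868). Myh6 was at 3.76, 12.5 and 11.2 CPM in these libraries, in the same order of low and high. The summed slow fibre genes were at 570.2, 1029 and 912.9 CPM in them and at 391.4 to 669.9 CPM in Mtm1-/y. Of these sums, the single gene Csrp3 made 259, 466 and 518 CPM in the treated mutants and 124 to 351 CPM in Mtm1-/y.

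The interaction of genotype and tamoxifen was called for 0 of the 9 members and for 0 of all genes tested (0%), while 0 members and 1650 of all genes reached an unadjusted p of 0.05. Neither DESeq2 (74 genes called) nor limma-voom (0 genes called) called a member. The largest estimate among the members was that of Myh7, -3.15 ± 2.15 (adjusted p = 0.618), which was 2.16 (adjusted p = 0.346) without WT + TAM replicate 1.

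Between the members of the chromosome 11 cluster lie 3 noncoding genes of the count table, all on the minus strand. The lincRNA 2310065F04Rik (chr11:67112461-67120080), between Myh3 and Myh2, stood at 250.8, 204.4, 206.4 and 209.2 CPM in WT and at 18.6, 64.3, 86.2 and 62.0 CPM in Mtm1-/y. It fell by 1.92 on the log2 scale (SE 0.39, adjusted p = 0.00268), opposite to its neighbour Myh3. Mtm1-/y replicate 1, the untreated library highest in Myh3, was its lowest. Replicate 3, the next in Myh3 (29.8 CPM), was its highest Mtm1-/y library (86.2 CPM), so the Mtm1-/y libraries were not in opposite order in these genes. 2310065F04Rik overlaps neither neighbour's annotated span.

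Under tamoxifen 2310065F04Rik was at 91.6, 209.5, 227.0 and 122.5 CPM in WT + TAM and 77.9, 64.6 and 56.3 CPM in Mtm1-/y + TAM, a log2 fold change of -1.30 ± 0.42 (adjusted p = 0.0438). This call was lost without any single library of 11 of the 15, with adjusted p up to 0.134, and with no filter (adjusted p = 0.122), limma-voom (adjusted p = 0.0717) and the summed counts of the 9 genes as library size (adjusted p = 0.0957). It was kept without WT + TAM replicates 1 or 4 or Mtm1-/y replicates 1 or 3. The 2 WT + TAM libraries low in this transcript, replicates 1 and 4, were those low in Myh4 share.

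The antisense gene 9430073C21Rik (chr11:67195680-67199234) starts between Myh2 and Myh1 and runs into the end of Myh2. It stood at 1.64 to 2.73 CPM in WT and 3.42 to 10.8 CPM in WT + TAM without overlap, a log2 fold change of 1.52 ± 0.33 (adjusted p = 0.0759), and at 2.26 to 4.39 CPM in Mtm1-/y and 5.01 to 6.65 CPM in Mtm1-/y + TAM, also without overlap and not called (0.96 ± 0.34, adjusted p = 0.855). The first of these was past the threshold with DESeq2 (adjusted p = 0.00111), with the summed counts of the 9 genes as library size (adjusted p = 0.00919), without WT + TAM replicate 2 (adjusted p = 0.0359) and without Mtm1-/y replicate 1 (adjusted p = 0.0378).

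The antisense gene Myhas (chr11:67211256-67237573), which starts just before Myh4 and runs into Myh1, was at 6.09 to 11.7 CPM over all libraries and was not called in any comparison. The libraries were made with a stranded kit, but how strand was used in counting is unknown here, so reads of an antisense gene and of the exon it overlaps may not be separated.

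**Figure D5:**
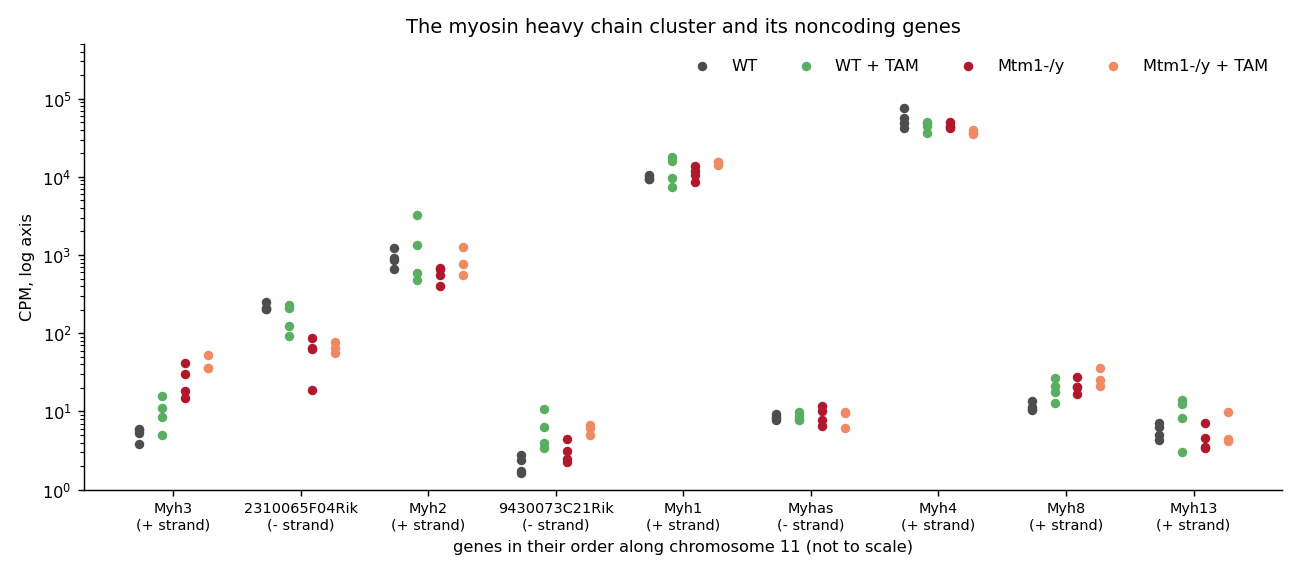
CPM (log axis) of the 6 members and 3 noncoding genes of the chromosome 11 cluster, in their order along the chromosome and not to scale, a point per library coloured by group. From left to right, Myh3 is higher in both mutant groups than in WT, and its neighbour 2310065F04Rik is lower (18.6 to 86.2 CPM in Mtm1-/y against 204.4 to 250.8 CPM in WT).

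The genes around the heavy chains were described by lists, in the comparison of Mtm1-/y with WT. Of 5 other myosin heavy chains, 2 were higher and 1 lower, where 15.5% of all genes were higher and 14.9% lower. Myh9, Myh10, Myh11 and Myh14 serve non-muscle and smooth muscle cells, and Myh15, a chain of the sarcomeric kind, had 0 to 15 counts per library. Myh14 went from 52.5 ± 6.55 CPM (SD, n = 4) to 112.9 CPM (log2 fold change 1.11 ± 0.21, adjusted p = 0.00129), Myh10 was higher by 0.61 (adjusted p = 0.0228), and Myh9 fell by 0.62 (adjusted p = 0.00156). The call of Myh10 was lost without WT replicate 1 or 4 or Mtm1-/y replicate 1 or 2, at adjusted p of 0.0564 to 0.069.

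Myosin light chains bind the neck of the heavy chain. Of 13 light chains and their kinases tested, 2 were higher and 2 lower, with a median log2 fold change of -0.10. Myl3, the slow and ventricular essential chain, fell by 3.81 (SE 0.48, adjusted p = 0.000125), from 21.1 ± 8.48 CPM to 1.49 CPM, while the slow heavy chain Myh7 was not called. Myl4, the embryonic and atrial essential chain, rose by 2.42 (SE 0.20, adjusted p = 2.96e-06), from 5.996 ± 1.29 CPM to 31.9 CPM, in the same direction as Myh3 and Myh8.

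The other light chain calls were Myl12a, a non-muscle regulatory chain, higher by 0.97 (adjusted p = 0.00416), and Myl9, the smooth muscle regulatory chain, which fell by 0.87 (adjusted p = 0.0107). Of 3 myosin-binding proteins tested, Mybpc2, the fast myosin-binding protein C, was the only call, and fell by 0.95 (SE 0.23, adjusted p = 0.00565).

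Of 7 folding factors and chaperones, 2 were higher, namely Hspb1 by 1.67 (adjusted p = 6.44e-06) and Cryab by 0.65 (adjusted p = 0.041), while the dedicated myosin chaperone Unc45b and the methyltransferase Smyd1 were not called. Cryab lost its call without WT replicate 1, 3 or 4, Mtm1-/y replicate 2 or 4, or Mtm1-/y + TAM replicate 2, at adjusted p of up to 0.134.

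Of 6 ligases, 3 were higher and 1 lower. Fbxo32 (atrogin-1) rose by 1.62 (adjusted p = 0.0158), Trim63 (MuRF1), which marks myosin for the proteasome, by 1.41 (adjusted p = 0.0146) and Asb5 by 0.42 (adjusted p = 0.018), and Trim55 (MuRF2) fell by 0.61 (adjusted p = 0.00856). Fbxo32 was at 1.04 (adjusted p = 0.0538) without Mtm1-/y replicate 1, and Asb5 at an adjusted p of 0.0501 without WT replicate 1 and 0.053 without WT replicate 4.

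Among 27 regulators of the heavy chain genes, 8 were higher and 4 lower, with a median log2 fold change of 0.10. The largest were Myog (2.62, adjusted p = 0.000595) and Myf6 (1.40, adjusted p = 3.13e-06), both myogenic factors, Tead4 (1.73, adjusted p = 0.000954), a factor that binds MCAT elements, and Rcan1 (1.44, adjusted p = 0.00905), a calcineurin target that is often read as a gauge of calcineurin and NFAT signalling. All 8 denervation markers, genes that rise when a fibre loses its nerve, were higher, among them Runx1 by 3.48, Gadd45a by 2.95 and Ncam1 by 2.80, and the adjusted p of these 3 was 1.61e-05 to 3.1e-05. Myog is also on this list.

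Of 10 fast fibre genes 0 were higher and 3 lower (14.9% of all genes tested were lower), namely Mybpc2, Casq1, the fast calsequestrin, by 0.66 (adjusted p = 0.0461) and Tnnt3, fast troponin T, by 0.51 (adjusted p = 0.00299), with a median of -0.25. The call of Casq1 was lost without any 1 of 12 libraries, namely all 4 of WT, replicates 2 to 4 of WT + TAM, replicates 2 and 4 of Mtm1-/y and all 3 of Mtm1-/y + TAM, at adjusted p of up to 0.126.

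Of 10 slow fibre genes, Myoz2, a calcineurin-binding Z-disc protein of slow fibres, was higher by 1.22 (adjusted p = 0.0274) and Myl3 lower, where 15.5% and 14.9% of all genes were called in these directions, and the median of the 10 was 0.86. Myoz2 lost its call without WT replicate 1, 2 or 4 or Mtm1-/y replicate 1 or 2, at adjusted p of up to 0.0729.

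Slow troponins stood higher in every Mtm1-/y library than in any WT library, and their calls turned on WT + TAM replicate 1. Tnni1, slow troponin I, was at 1.89, 1.58, 2.52 and 2.49 CPM in WT and 12.01, 17.3, 12.5 and 11.7 CPM in Mtm1-/y. Tnnt1 was at 2.25 to 3.23 and 6.61 to 9.26 CPM, and Tnnc1, troponin C of slow fibres and heart, at 1.42 to 2.52 and 6.51 to 8.99 CPM. The sum of the 10 slow genes did not overlap between the groups either, at 212 to 387 CPM in WT and 391 to 670 CPM in Mtm1-/y. Csrp3, Myoz2 and Casq2 of that list made up most of this sum in both groups, and the slow troponins little of it. Csrp3 (20.7 to 176 CPM in WT and 124 to 351 CPM in Mtm1-/y) and Casq2 overlapped between the groups.

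With all 15 libraries in the fit Tnni1, Tnnt1 and Tnnc1 were not called, with log2 fold changes of 2.65 (adjusted p = 0.0656), 1.53 (adjusted p = 0.294) and 1.98 (adjusted p = 0.204). Without WT + TAM replicate 1 the changes were 2.65, 1.53 and 1.98 and all were called, with adjusted p of 0.000201, 0.00765 and 0.000679. Atp2a2, the calcium pump of slow fibres and heart, passed too (0.50, adjusted p = 0.0194), so that 5 of the 10 slow genes were higher and 1 lower. Among all 15533 genes tested, 2565 were higher and 2547 lower without that library. Tnni1 also passed with DESeq2 (adjusted p = 0.0137) and without WT + TAM replicate 3 (adjusted p = 0.0338). The count of slow genes was also 5 and 1 when the WT and Mtm1-/y libraries were fitted alone, where 2040 of all genes were higher and 2048 lower.

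Scaled by the summed heavy chain counts instead, Casq1, Tnnt3, Trim55 and Myh9 kept their direction and lost their calls, at adjusted p of 0.0794 to 0.132.

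Markers of other cell types were counted as well. All 5 endothelial markers were lower in Mtm1-/y, and their sum was 376 to 493 CPM in WT and 191 to 264 CPM in Mtm1-/y. Schwann cell markers summed to 67.7 to 98.0 and 89.3 to 124 CPM with 2 of 6 higher, and macrophage markers to 25.5 to 44.4 and 29.0 to 74.6 CPM with 1 of 7 higher. Smooth muscle (242 to 294 and 221 to 268 CPM), adipocyte (191 to 229 and 147 to 213 CPM) and blood markers (69.1 to 96.2 and 14.9 to 66.5 CPM) had no call. Of the 9 cardiac markers 3 passed the count filter and 2, Tnnt2 among them, were higher. The part of these cells in the heavy chain results was not tested.

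In Mtm1-/y + TAM against WT + TAM, 32 of 120 listed genes other than members were called, where 20.1% of all genes tested were called (10.6% higher and 9.46% lower). Among the 32 were Myl3 (-3.33, adjusted p = 0.000775), Myl4 (2.36, adjusted p = 9.09e-06) and Hspb1 (1.90, adjusted p = 9.04e-06), and 7 of 8 denervation markers. In WT + TAM against WT and in Mtm1-/y + TAM against Mtm1-/y, 0 of the 120 were called by edgeR, with 12 and 13 at an unadjusted p under 0.05 (11.3% and 5.54% of all genes tested), 4 and 0 called by DESeq2, and 0 called by limma-voom in either.

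Genes whose variation between libraries of a group was most like that of a member were found by the Pearson correlation of log2 CPM after group means were taken away, over 15 libraries and 11057 candidate genes. They share libraries and depth, and the values are descriptions. For the slow and cardiac chains they included Tpm3, Tnnt1 and Myl2 of the slow fibre list. Beside Myh7 stood Myh6 (0.96), Tpm3 (0.96) and Ptpn13 (0.96), and beside Myh6 Tnnt1 (0.97), Tpm3 (0.97) and Myl2 (0.97). Beside Myh7b stood Myh6 (0.94), Myl2 (0.92) and Slc25a30 (0.91). WT + TAM replicate 1 lies far out in all of these. Over the 14 other libraries the same values were 0.85, 0.74 and 0.74 for Myh7, 0.89, 0.89 and 0.89 for Myh6, and 0.89, 0.81 and 0.80 for Myh7b. The most alike genes were not chosen again over those libraries. There Myh7b lay closer to the extraocular chain Myh13 (0.93) than to Myh6.

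For the fast chains they were Ap4m1 (0.93) and Myoz2 (0.90) beside Myh1, Tiam1 (0.94), Sort1 (0.90) and Slc23a2 (0.88) beside Myh4, and Uhrf1bp1l (0.96), Myom3 (0.94), the M-band protein of IIA and slow fibres, and Ldhb (0.93), the oxidative lactate dehydrogenase subunit, beside Myh2. For the developmental chains they were Hspa2 (0.90), Zdhhc23 (0.87) and Kdm6a (0.86) beside Myh3 and Ppfibp1 (0.86), Natd1 (0.84) and Fam107b (0.84) beside Myh8, and beside Myh13 Myl10 (0.94), Myh7b (0.87) and Tgoln1 (0.84).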

How the data were processed

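The authors deposited raw read counts per Ensembl gene for 15 libraries, made with the TruSeq Stranded mRNA kit from tibialis anterior RNA, with no normalization. From the submitters' notes, the tools were HTSeq 0.6.1p1, STAR 2.5.3a, Bowtie2 2.2.8 and cutadapt 1.10 and the builds GRCm38 and mm10, with no role or order for any of them. Annotation release, strand setting and treatment of reads matching several genes: not given in the sources used here. Symbols, coordinates and exon lengths came from GENCODE M21 on GRCm38, and all 30672 identifiers matched.

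The test was that of edgeR 4.0.16, run in R 4.3.3. Of the genes, 582 had no count, and filterByExpr (minimum count 10) kept 15533, all 9 members included, so a comparison planned for members under the filter was void. A quasi-likelihood model with TMM factors and 4 group means was fitted to all 15 libraries with 11 residual degrees of freedom. The contrasts were 4 between groups and the interaction. Genes were called at a Benjamini-Hochberg adjusted p under 0.05. SE was derived from the test, as the absolute log2 fold change divided by the square root of the F statistic. The tests were checked on simulated counts with known changes. A limit on false calls was set there for edgeR and limma-voom and not for DESeq2. Groups came from the labels. Libraries of a group differed by a chi-square of at least 11.3 per degree of freedom, and none was merged with another. The labels do not say that replicates are separate animals, so p-values measure only the spread between these libraries, which may be technical.

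Members and lists were chosen with earlier results of these data known. From each list, up to 4 called genes of largest change were named in Mtm1-/y against WT, and up to 3 called under tamoxifen, with Mtm1, every gene inside the cluster and the 3 most alike genes of each member. Some genes that this rule takes in are not reported here. Tnnt2, Unc45b, Smyd1, Casq2, Csrp3, Myl2, Tnnt1, Tpm3, Tnni1, Tnnc1, Atp2a2 and 5 adipocyte markers were named after their values were seen. Alternatives were RLE and upper-quartile factors, TMM without the members, the members' summed counts as library size, no filter, at least 1 CPM in 3 libraries, DESeq2 1.42.0, limma-voom (limma 3.58.1), a further limit of 1 on the absolute log2 fold change, the compared groups alone, a replicate block and leaving out each library. A fit lacking both WT + TAM replicate 1 and replicate 1 of Mtm1-/y was added after seeing the data.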

Additional observations from a re-analysis of the deposited data

Results flagged for a closer look

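Of 54 sets of 4 values examined by Dixon's ratio of gap to range, 4 held an outlying value, where chance alone gives about 1 in 20. All 4 were values of WT + TAM replicate 1, far outside the other 3 libraries of its group. The sets came from WT, WT + TAM and Mtm1-/y, so only a part of them held this library. Its own rate was not set against chance. Myh7 was at 439.4 CPM against 1.45 to 3.70 CPM (ratio 0.995) and at a share of 0.682% against 0.00242 to 0.00673% (ratio 0.994). Myh6 was at 105.3 CPM against 1.64 to 6.73 CPM (ratio 0.951) and at a share of 0.163% against 0.00274 to 0.0118% (ratio 0.943). These are 2 genes measured on 2 scales in 1 library. No difference between groups in their response to tamoxifen or genotype was called for any member, and all 15 columns of the table were used.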

How the results depend on the processing

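Over 27 alternatives for each comparison between groups and 26 for the interaction, 129 counts of members called stayed within 1.5 times the count reported and 5 did not. In Mtm1-/y against WT, 1 member was called with the further limit on fold change and 5 with the 2 groups alone, and leaving out a library gave 2 to 3. All genes called in these fits numbered 1536, 4088 and 3682 to 5112 of 15533. In WT + TAM against WT DESeq2 called 2, and leaving out a library gave 0. In Mtm1-/y + TAM against WT + TAM leaving out a library gave 1 to 2, with 2 without WT + TAM replicate 1, alone or together with Mtm1-/y replicate 1. Myh3 kept its call in both comparisons of genotype in every alternative run, 27 in each. Myh8 kept its call in Mtm1-/y against WT in all but that with the further limit on fold change, which its value does not reach.

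Some uncalled directions reversed. In Mtm1-/y + TAM against Mtm1-/y, leaving out a library gave Myh7b -0.12 to 0.36 and Myh13 -0.097 to 0.69. In WT + TAM against WT it gave Myh2 -0.18 to 0.92. In Mtm1-/y + TAM against WT + TAM it gave Myh2 -1.09 to 0.091, Myh6 -2.08 to 0.99, Myh7 -2.84 to 3.04 and Myh7b -0.29 to 0.67, and without both doubted libraries 0.091, 1.01, 3.06 and 0.68. Limma-voom gave 0.19 for Myh6 and 1.20 for Myh7, and upper-quartile factors -0.0013 for Myh7b. The Myh7 interaction was -3.72 to 2.16 over left-out libraries, 2.25 without both, and 0.35 with limma-voom. Among fits that left out a single library, only that without WT + TAM replicate 1 reversed Myh2, Myh6 and Myh7. With it kept, limma-voom reversed Myh6 and Myh7, and a replicate block reversed Myh7 (0.084). The causes of the reversals were not tested.

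Per kilobase of exon, mean shares were 27.4% for Myh1 and 71.1% for Myh4 in Mtm1-/y + TAM, 0.00234 and 0.0051% for Myh7 in WT and Mtm1-/y, and 0.00916, 0.0174, 0.0194 and 0.0267% for Myh8 in WT, WT + TAM, Mtm1-/y and Mtm1-/y + TAM. The summed counts of the 9 genes as library size moved the median of all genes by 0.18 in Mtm1-/y against WT, 0.13 in WT + TAM against WT, 0.15 in Mtm1-/y + TAM against WT + TAM, 0.11 in Mtm1-/y + TAM against Mtm1-/y and -0.03 in the interaction, and the calls from 2407 higher and 2320 lower to 2542 and 812 in the first, from 1652 and 1469 to 1312 and 365 in Mtm1-/y + TAM against WT + TAM, and from 28 and 20 to 43 and 12 in WT + TAM against WT. In WT + TAM against WT the 48 genes called became 298 with DESeq2, 11 to 144 when a library was left out (fewest without WT replicate 1, most without Mtm1-/y replicate 1) and 347 without both doubted libraries. In Mtm1-/y + TAM against Mtm1-/y the 2 genes became 4 with DESeq2, 1 with no filter or the 2 groups alone, 0 to 5 when a library was left out and 7 without both. The further limit on fold change left 1536 of 4727 genes in Mtm1-/y against WT and 934 of 3121 in Mtm1-/y + TAM against WT + TAM, where 1654 were called without Mtm1-/y + TAM replicate 2. The interaction had 74 calls with DESeq2, 2 with no filter, 0 to 7 when a library was left out and 14 without both.

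Whether replicate numbers pair the samples was not settled. In 6 of 21 same-numbered pairs the deviations correlated above 0.1 (range -0.11 to 0.31), and pairs of unlike number were not correlated for comparison. With a replicate block, all counts of members called were the same, the genes called numbered 4473 (untreated genotypes), 2792 (treated genotypes), 33 (tamoxifen in wild type), 2 (tamoxifen in the mutant) and 0 (interaction), and Myh7 in Mtm1-/y + TAM against WT + TAM became 0.084. Under the block 2310065F04Rik lost its call under tamoxifen (adjusted p = 0.0856), Casq1 (0.0705) and Myoz2 (0.0548) lost theirs in Mtm1-/y against WT, and 9430073C21Rik passed in WT + TAM against WT (0.0455). Counts as low as 33 for Myh7 limit the precision of its shares.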
